A study of Mus musculus with 13 samples.

Results

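The 10 genes described here set the entry of a cell into division. They are the D-type cyclins Ccnd1, Ccnd2 and Ccnd3, their catalytic partners Cdk4 and Cdk6, the inhibitors Cdkn1a, Cdkn1b, Cdkn2c and Cdkn2d, and Myc. They were chosen by name, and each matched 1 of the 57010 genes listed for each of 2 single-cell experiments on mouse immune cells. Their unique molecular identifiers (UMIs, counted RNA molecules) were followed over the classes of thymocytes, and over the T and B cells of other tissue samples in the same library.

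D cyclins bind Cdk4 or Cdk6, and the complex phosphorylates the retinoblastoma protein, which releases E2F factors and lets a cell start DNA synthesis. Inhibitors of the Ink4 family, here Cdkn2c (p18) and Cdkn2d (p19), bind Cdk4 and Cdk6 themselves, whereas those of the Cip/Kip family, here Cdkn1a (p21) and Cdkn1b (p27), bind cyclin and kinase complexes. Myc is a transcription factor of growing cells. In the thymus, double-negative (DN) cells that have made a T cell receptor β chain divide rapidly and then become resting double-positive (DP) cells, which carry both CD4 and CD8 and rearrange the α chain. Cells that pass selection mature into CD4 or CD8 single-positive (SP) cells. Ccnd3 is the D cyclin known to be needed for the burst of division after β selection.

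The cells were barcoded by split-pool ligation (Parse Biosciences), in which the first well names the tissue sample. The Parse WT kit held 20 tissue samples in 9 sublibraries. Of these, 4 were single thymic lobes from 2 female C57BL/6N mice aged 2 months, called Parse samples 1 to 4, and 16 were the other samples. The series describes thymic and splenic samples of young and adult mice, while the study calls these 16 non-thymic, and 8 of them held 50 or more cells like resting thymocytes. The Parse Mini kit held 4 lobes from 2 other young female C57BL/6N mice, called Mini samples 1-A, 1-B, 2-A and 2-B. No altered allele is given for any mouse. The labels list control and chronic stress for the WT sublibraries without assigning either to a tissue sample, so the 16 other samples are described by lowest, median and highest values and no conditions among them were compared. Lobes of 1 mouse are not independent animals, so the p-values below are too small for a statement about mice. They rest on the scatter of class levels over lobes that remains once each lobe's own level is taken out. The Mini kit repeats each comparison in other mice.

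After quality control and removal of called doublets, 3906, 11138, 9215 and 13219 cells were kept in Parse samples 1 to 4 and 4089 to 4938 cells in each Mini lobe. Median depth was between 2163 and 3556 UMIs per cell. Of the well combinations in Parse WT, 19.2% occurred in more than 1 sublibrary (7.26% in Mini), and no barcode that included the sublibrary was repeated. Parse sample 1 was the smallest lobe and stood apart from the others in several values below, and calls were also made without it.

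Clusters were made without the 10 genes and without 50 further genes of the pathway, and named from marker genes. The class names DN, cycling, DP-R (resting DP), DP-S (DP with signs of selection), SP-CD4 and SP-CD8 each stand for cells that are like that stage. DN cells raised 11 of 12 markers in both kits, cycling clusters all of their S or G2M markers, DP-R clusters 8 to 10 of 11, SP-CD4 8 of 10, and SP-CD8 9 of 12 in WT and 8 of 12 in Mini, where the cluster also raised 8 of the SP-CD4 markers. The DP-S class was the least alike between kits. In WT it joined a cluster of 2848 cells that raised 5 of 8 markers and one of 1265 cells that raised 8 of 8. In Mini it was 1 cluster with 5 of 8. Larger clusters that raised 8 of 8 DP-S markers stayed unnamed in both kits, 3310 cells in WT and 1494 in Mini, because they scored nearly as high for SP-CD4. In Mini another 674 cells with 8 of 8 stayed unnamed because a marker of another class was among their leading genes. The DP-S values below thus cover part of such cells. The unnamed clusters of 3310 and 1494 cells also raised 5 and 6 SP-CD4 markers. The SP-CD4 class, with 1704 cells in WT and 454 in Mini, can therefore also cover only part of the CD4 cells. Levels are in CPM, the UMIs of a gene for each 1000000 UMIs outside ribosomal RNA, summed over the cells of a class in a lobe. Il2ra, which the study names as a marker of DN cells, was at 584 to 1251 CPM in DN cells of the 8 lobes. In the other 5 of these classes it was at most 48.4 CPM. The DN class was 1 cluster in each kit, with Il2ra as its leading gene. Its values thus stand for DN-like cells with Il2ra, and DN cells without it were not separated. Mki67, a marker of dividing cells, was at 1403 to 2033 CPM in cycling cells, 348 to 666 CPM in DN cells and 61.7 to 257 CPM in DP-R cells. In SP-CD8 cells it was at 76.7 to 331 CPM in WT but 728 to 1252 CPM in Mini. A further WT cluster of 776 cells raised 10 of 10 G2M markers and 6 SP-CD4 markers. It stayed unnamed because markers of another class were among its leading genes. Neither the cycling class nor the SP classes of WT hold these cells. Classes differed in depth: in the Parse WT lobes median UMIs per cell were 1666 to 2736 in DP-R cells, 7346 to 10060 in DN cells and 7116 to 9689 in cycling cells. Levels in CPM compare shares of the UMIs of a class and not molecules per cell.

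Thymocyte RNA was also counted in cells that should lack it. Rag1, which cuts the receptor genes in DP cells, was at 1332 to 1935 CPM in DP-R cells of the 4 Parse WT lobes and at 303 to 416 CPM in antigen-presenting and other myeloid cells of the same lobes. The myeloid cells carried Ccnd3 at 2080 to 2716 CPM, with 6.16 to 7.24 Ccnd3 UMIs per Rag1 UMI against 2.70 to 3.82 in DP-R cells. The part of free thymocyte RNA in the levels of abundant genes such as Ccnd3 was not tested.

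Per kilobase of exon or of whole gene, Ccnd3 had the highest mean level of the 10 genes in each of the 6 thymocyte classes of both kits. Between classes its level in CPM was highest in DP-R and DP-S cells, about 1.6-fold lower in cycling cells and lowest in DN cells and in cells in S phase. This is an order of shares of RNA. In Parse sample 2 the median UMIs per cell were 1666 in DP-R, 7412 in cycling and 7845 in DN cells. A lower CPM in DN and cycling cells is thus not fewer Ccnd3 molecules per cell. Ccnd3 lies at chr17:47505051-47599691 (GRCm38, plus strand) and overlaps Bysl on the other strand. The strand setting of the counting is not stated, so reads of the pair cannot be told apart. The promoter table holds 2 starts of Ccnd3, and which of them these cells use was not examined. The bases before the second start, chr17:47593217-47593466, hold none of the motifs named below. The 250 bases before the first start of Ccnd3 in the RefSeq promoter table (GRCm38.p6) are printed because this gene carries the main contrast of resting and dividing cells. They hold none of the motifs searched on both strands, which were the E2F site (TTTCCCGC or TTTGGCGC), the E-box CACGTG, the cell-cycle element TTTGAA and the AP-1 site (TGACTCA or TGAGTCA).
Ccnd3, chr17:47504801-47505050, plus strand: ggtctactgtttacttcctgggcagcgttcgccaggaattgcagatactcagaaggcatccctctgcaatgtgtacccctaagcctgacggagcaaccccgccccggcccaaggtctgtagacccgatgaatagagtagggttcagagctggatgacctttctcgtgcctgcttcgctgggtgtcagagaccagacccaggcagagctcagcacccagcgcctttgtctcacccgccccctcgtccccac

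In DP-R cells Ccnd3 stood at 5233, 5091, 5088 and 5064 CPM in Parse samples 1 to 4, and at 5125, 5103, 4987 and 5579 CPM in Mini samples 1-A, 1-B, 2-A and 2-B. In cycling cells it stood at 3120, 3356, 3096 and 3155 CPM in the WT lobes and at 3450, 3413, 3495 and 3414 CPM in the Mini lobes. The 2 classes did not overlap in either kit. The log2 difference of cycling from DP-R was −0.69 (SE 0.042) in WT (edgeR quasi-likelihood, Benjamini-Hochberg adjusted p = 1.50e-16) and −0.64 (SE 0.046) in Mini (edgeR adjusted p = 1.29e-16). Within single first-round wells, cycling cells were lower in 8 of 8 WT wells and 12 of 12 Mini wells, and within sublibraries in 8 of the 9 WT and both Mini sublibraries. WT sublibrary 9 was not compared, because its 28 cycling cells were under the minimum of 30 cells. Wells and sublibraries divide the cells of the same lobes, so these counts are not further replicates.

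Within the cycling cells, S-phase clusters carried less Ccnd3 than G2M clusters. S-phase values were 2441, 2859, 2536 and 2531 CPM in the WT lobes and 2576 to 2943 CPM in Mini. G2M values were 3400, 3681, 3521 and 3541 CPM in WT and 3704 to 3819 CPM in Mini. The groups did not overlap, and this difference was not tested.

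DN cells held Ccnd3 at 2694, 3057, 2674 and 2818 CPM in WT and at 2884, 2870, 2743 and 2838 CPM in Mini. Every lobe was far below its DP-R cells, with a log2 difference of −0.97 (SE 0.043) in WT and −0.94 (SE 0.048) in Mini (edgeR adjusted p = 3.95e-20 and 1.58e-21). DN cells were also below the cycling class, by −0.28 and −0.30 on the log2 scale (edgeR adjusted p = 1.05e-06 in each kit). The highest myeloid value, 2716 CPM, lay inside the range of the DN lobes. With each cell thinned to 1000 UMIs, 85.9% to 91.5% of DN cells of the WT lobes had a Ccnd3 UMI, against 98.1% to 98.7% of DP-R cells and 73.4% to 81.6% of myeloid cells.

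From the resting stage onward the differences in Ccnd3 were smaller. DP-S cells held 5504, 5057, 5120 and 5142 CPM in WT and 5171, 5586, 5229 and 5775 CPM in Mini, and their range overlapped that of DP-R cells. The log2 difference was 0.01 (SE 0.042) in WT and 0.05 (SE 0.046) in Mini, and neither passed the test (edgeR adjusted p = 0.940 and 0.570). Where cells were clustered in another way it was −0.24 and −0.17 and passed in both kits (edgeR adjusted p = 5.21e-06 and 7.57e-05), so the result for DP-S cells depends on the clustering. In WT it was −0.02 without Parse sample 1.

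SP-CD4 cells held Ccnd3 at 4791, 4899, 4792 and 4804 CPM in WT and at 4464, 4622, 4724 and 5282 CPM in Mini. They were just below the DP-R cells of the same lobe in 4 of 4 lobes of each kit, by −0.12 and −0.13 on the log2 scale (edgeR adjusted p = 0.0237 and 0.0340). This small call was lost in both kits without the lobe block and in WT without Parse sample 2, 3 or 4 and in cells of 1000 to 10000 UMIs, where the WT difference was −0.04, and under the stricter doublet removal. It was lost in Mini without lobe 1-A, 1-B or 2-A and at 1000 UMIs per cell. Apart from the −0.04, the log2 difference in these settings stayed between −0.14 and −0.11.

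SP-CD8 cells were lower in Ccnd3, at 4285, 4224, 4037 and 4136 CPM in WT and 4061, 3601, 3814 and 3970 CPM in Mini. All 8 lobes lay below their DP-R cells, and the log2 difference was −0.35 (SE 0.043) and −0.44 (SE 0.047) (edgeR adjusted p = 1.69e-08 and 5.53e-11). The Mini SP-CD8 cells carried Mki67 at 728 to 1252 CPM against 72.6 to 157 CPM in their DP-R cells, and the part of dividing cells in the Mini value was not tested. Regulatory T-like cells of the WT lobes had 3917 to 4080 CPM. The order in WT was therefore DP-S and DP-R, whose ranges overlap, then SP-CD4, SP-CD8, G2M, and last S-phase and DN cells, whose ranges overlap.

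**Figure D1:**
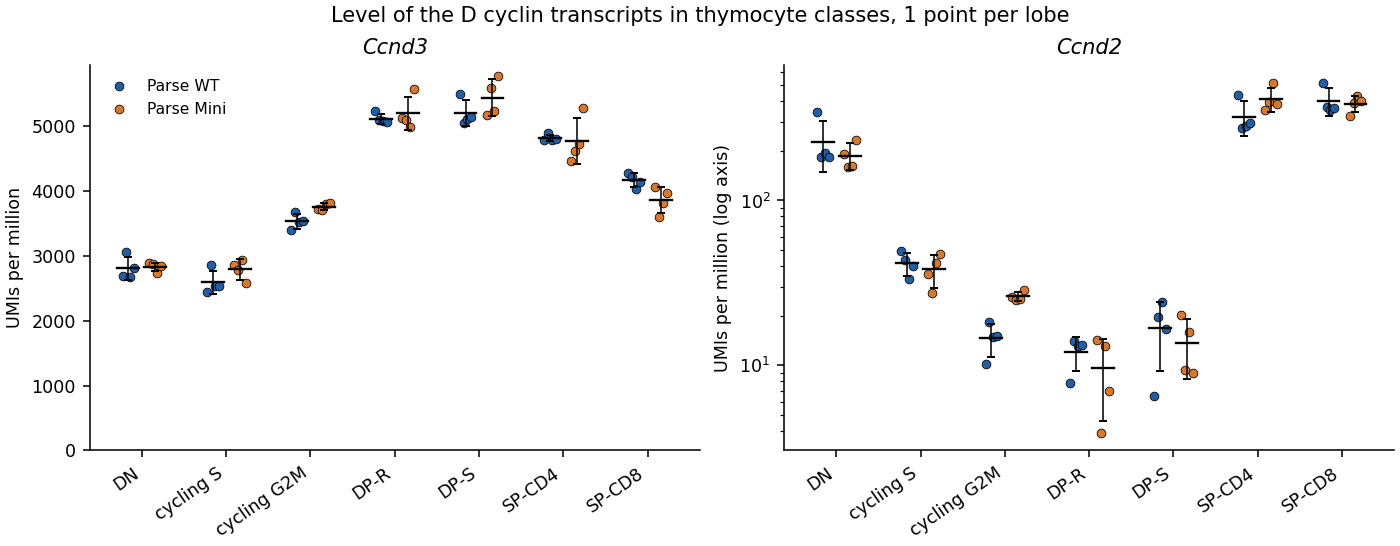
Levels of Ccnd3 (left, linear axis) and Ccnd2 (right, log axis) in CPM in 7 thymocyte classes, with 1 point per thymic lobe, a line at the mean and bars of 1 SD over 4 lobes, Parse WT in blue and Parse Mini in orange. Ccnd3 is at 4987 CPM or more in every DP-R lobe and at 3819 CPM or less in every cycling or DN lobe, while Ccnd2 is below 25 CPM in DP-R and DP-S cells and above 150 CPM in DN and SP cells.

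Ccnd2 followed another course. It was high in DN cells, nearly absent from DP-R cells, and high again in both SP classes. Ccnd2 lies at chr6:127125162-127152193 (GRCm38, minus strand). The non-coding genes Gm43126 and 9330179D12Rik overlap it on the other strand, with the same limit as for Ccnd3.

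In DN cells Ccnd2 stood at 342, 183, 193 and 184 CPM in Parse samples 1 to 4 and at 192, 160, 162 and 234 CPM in the Mini lobes. In DP-R cells it stood at 7.83, 14.1, 13.1 and 13.2 CPM in WT and at 14.3, 3.89, 13.2 and 6.96 CPM in Mini. Parse sample 1 was the highest DN lobe and the lowest DP-R lobe of its kit, and no DN lobe of either kit came near a DP-R lobe. The log2 difference was 3.94 (SE 0.16) in WT and 4.26 (SE 0.18) in Mini, or 15.4-fold and 19.1-fold (edgeR adjusted p = 2.95e-21 and 1.54e-24).

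Cycling cells were in between. They held Ccnd2 at 21.7, 28.3, 22.8 and 24.5 CPM in WT and 29.0, 25.8, 27.2 and 30.7 CPM in Mini, above the DP-R cells of every lobe by 1.00 and 1.56 on the log2 scale (edgeR adjusted p = 4.45e-06 and 3.18e-10). They stayed below DN cells, by a log2 difference of DN from cycling of 2.94 and 2.70 (edgeR adjusted p = 6.90e-19 and 2.20e-19). S-phase clusters had 33.3 to 49.5 CPM and G2M clusters 10.2 to 18.2 CPM in the WT lobes, the opposite order to Ccnd3. In the Mini lobes, S-phase clusters had 27.5 to 47.3 CPM and G2M clusters 25.01 to 28.6 CPM, which overlap.

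SP-CD4 cells held Ccnd2 at 438, 274, 284 and 296 CPM in WT and at 356, 396, 516 and 387 CPM in Mini. SP-CD8 cells held 518, 371, 354 and 363 CPM in WT and 326, 391, 428 and 402 CPM in Mini. Both classes were above DP-R cells in all 8 lobes, by 4.60 and 5.47 (SP-CD4) and by 4.90 and 5.36 (SP-CD8) on the log2 scale in WT and Mini (edgeR adjusted p between 1.61e-30 and 4.82e-24). DP-S cells, at 6.47, 19.7, 24.1 and 16.6 CPM in WT, overlapped DP-R cells, and their log2 differences of 0.49 and 0.55 did not pass the test (edgeR adjusted p = 0.152 and 0.371). Under the other clustering, whose DP-S class holds other cells, these differences were 3.21 and 4.25, and the WT difference also passed without Parse sample 1 (0.52), without the low-count filter (0.44) and at 1000 UMIs per cell (0.68).

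The same contrast was seen cell by cell. With each cell thinned to 1000 UMIs, 25.5% to 33.3% of SP-CD4 cells and 30.8% to 38.6% of SP-CD8 cells of the WT lobes had a Ccnd2 UMI, against 0.58% to 1.202% of DP-R cells and 1.56% to 2.33% of cycling cells. Among DN cells the share was 17.8% to 22.5%. Myeloid cells, with 5.44% to 7.50%, lay above DP-R cells. Unthinned, 53.8% to 80.3% of DN cells and 1.91% to 2.78% of DP-R cells had a UMI.

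On a scale per kilobase of exon, the mean level of Ccnd3 over the WT lobes was 583 CPM per kb in DP-R cells and 320 in DN cells, and that of Ccnd2 was 1.28 and 23.98. In SP-CD8 cells the mean levels were 475 CPM per kb for Ccnd3 and 42.7 for Ccnd2. Ccnd3 thus stayed above Ccnd2 in each of these classes, also per kilobase of the whole gene, where DN cells had 29.7 and 8.35 CPM per kb.

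Ccnd1, the D cyclin of many adherent and epithelial cells, was at 0 to 5.38 CPM in the 6 thymocyte classes of all 8 lobes, the highest value resting on 2 UMIs in SP-CD4 cells of Mini lobe 2-A, and under the filter for low counts in both kits. It was counted in the myeloid class of the same lobes, at 152, 139, 152 and 188 CPM in Parse samples 1 to 4 and at 145 and 104 CPM in the 2 Mini lobes with enough such cells. LTO1 overlaps Ccnd1 (chr7:144929931-144939925, minus strand) on the other strand.

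Cdk6 and Cdk4 were both higher in dividing and DN cells than in DP-R cells, but by different amounts. Cdk6 (chr5:3341485-3531008, plus strand) was highest in DN cells by a wide margin. The bases before the starts of both genes are printed because they hold the E-box CACGTG, which Myc is known to bind. These promoters were chosen for printing after motifs and levels had been seen. Cdk4, Cdk6, Myc, Ccnd2 and Cdkn2c were all higher in DN and in cycling cells than in DP-R cells in both kits. Neither of the 2 starts of Cdkn2c holds an E-box, and Ccnd2 and Myc are not in the promoter table. No binding was measured, and whether Myc sets the level of either kinase was not tested. E-boxes are in capitals. They lie 172, 118, 98 and 11 bases before the start of Cdk4 and 220 bases before that of Cdk6.
Cdk4, chr10:127063285-127063534, plus strand: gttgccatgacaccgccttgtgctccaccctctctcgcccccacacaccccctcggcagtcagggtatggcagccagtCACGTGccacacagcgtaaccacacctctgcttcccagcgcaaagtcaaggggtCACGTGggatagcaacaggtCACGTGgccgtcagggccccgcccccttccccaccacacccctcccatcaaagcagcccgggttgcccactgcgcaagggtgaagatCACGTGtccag
Cdk6, chr5:3343643-3343892, plus strand: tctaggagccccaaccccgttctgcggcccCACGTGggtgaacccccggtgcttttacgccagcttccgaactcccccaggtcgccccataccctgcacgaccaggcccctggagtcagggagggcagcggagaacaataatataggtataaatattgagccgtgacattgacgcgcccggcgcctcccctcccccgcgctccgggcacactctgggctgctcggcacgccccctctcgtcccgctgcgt

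An E-box was held by 6.02% of the 32851 promoters of the same length in the table, an E2F site by 1.30%, the element TTTGAA by 15.99% and an AP-1 site by 4.46%. At least as many E-boxes as before Cdk4 were held by 7 promoters, or 0.0213%. Of the 10 genes, 7 had a promoter in the table, with 10 starts in all, and 8 of these starts held no motif searched. Such a match describes letters, and whether it is bound in these cells was not measured.

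In DN cells Cdk6 stood at 2465, 1304, 1691 and 1508 CPM in WT and at 2287, 2125, 1944 and 2524 CPM in Mini. In DP-R cells it stood at 186, 169, 160 and 161 CPM in WT and at 217, 193, 192 and 190 CPM in Mini. Each DN lobe was several times above every DP-R lobe, and the log2 difference was 3.21 (SE 0.070) in WT and 3.42 (SE 0.077) in Mini (edgeR adjusted p = 5.59e-29 and 4.43e-35). DN cells also exceeded cycling cells, by 2.22 and 2.39 (edgeR adjusted p = 7.86e-25 and 1.59e-29).

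Cycling cells had a mean of 337 ± 38.5 CPM of Cdk6 (SD, n = 4 lobes) in WT and 418 ± 26.9 CPM in Mini, above DP-R cells in every lobe by 0.99 and 1.03 on the log2 scale (edgeR adjusted p = 2.95e-15 and 6.43e-17). The S-phase clusters, at 707, 446, 559 and 500 CPM in the WT lobes, were above the G2M clusters, at 248, 206, 202 and 191 CPM. Mini lobes had the same order, with 689 to 732 CPM in S phase and 233 to 292 CPM in G2M. In DP-S cells Cdk6 was slightly above DP-R cells, by 0.26 and 0.29 (edgeR adjusted p = 0.00882 and 0.0272), a call lost in both kits without the lobe block and without several single lobes (Parse sample 3 or 4, Mini 1-B, 2-A or 2-B), and in Mini with DESeq2, although the log2 difference stayed between 0.21 and 0.30.

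SP cells were close to DP-R cells in Cdk6. In SP-CD8 cells the log2 difference was 0.27 in WT (edgeR adjusted p = 0.0189) and 0.13 in Mini (edgeR adjusted p = 0.334), and the WT call was lost without the lobe block (0.28), without the low-count filter (0.17) and without Parse sample 4 (0.28). In SP-CD4 cells the differences were −0.12 (SE 0.086) and 0.06 (SE 0.12) and did not pass (edgeR adjusted p = 0.273 and 0.749). The WT difference passed at −0.20, −0.32 and −0.33 without the filter, at 1000 UMIs per cell and under the stricter doublet removal, and the Mini difference turned under the latter to −0.43, which passed (edgeR adjusted p = 0.0389). Gm17590 and Gm42435 overlap Cdk6 on the other strand.

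Cdk4 (chr10:127063534-127067920, plus strand, overlapped by Tspan31 on the other strand) was in DN cells at 47.3, 48.0, 55.4 and 46.2 CPM in WT and at 43.7, 49.1, 31.9 and 63.5 CPM in Mini. DP-R cells had 8.23, 18.9, 16.9 and 15.8 CPM in WT and 18.8, 15.2, 12.6 and 13.9 CPM in Mini, below every DN lobe. The log2 difference was 1.53 (SE 0.12) in WT and 1.59 (SE 0.19) in Mini (edgeR adjusted p = 3.58e-13 and 8.98e-10). Cycling cells were above DP-R cells 2.56-fold and 2.38-fold (edgeR adjusted p = 3.95e-15 and 7.29e-12), with 51.2 to 69.9 CPM in S phase and 22.5 to 33.4 CPM in G2M in the WT lobes.

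DN and cycling cells did not differ in Cdk4 by the test, with log2 differences of 0.18 (SE 0.11) and 0.34 (SE 0.17) (edgeR adjusted p = 0.187 and 0.114). In WT this passed under the stricter doublet removal (0.52) and the other clustering (0.30). SP-CD4 cells were above DP-R cells by 0.66 in WT (edgeR adjusted p = 3.08e-04) and by 0.69 in Mini, which did not pass (edgeR adjusted p = 0.0548) but did without lobe 2-B (0.87), with DESeq2 (0.69) and under the other clustering (0.72). SP-CD8 cells were above them by 0.81 and 0.66 (edgeR adjusted p = 2.88e-04 and 0.0176), and the Mini call was lost without lobe 1-A (0.62) or 2-B (0.53), without the low-count filter (0.55), in cells of 1000 to 10000 UMIs (0.58) and under the stricter doublet removal (0.78). DP-S cells were above by 0.58 in WT (edgeR adjusted p = 4.65e-04), and the 0.35 in Mini did not pass (edgeR adjusted p = 0.366) but did under the other clustering, at 0.83 (edgeR adjusted p = 1.56e-05).

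In DP-R cells the order of the kinases changed with the length used. In those of the WT lobes the mean level was 12.1 CPM per kb of exon for Cdk6 and 4.61 for Cdk4, but 0.891 and 3.41 CPM per kb of the whole gene. Cdk6 spans 189.5 kb and Cdk4 4.39 kb. In DN cells of the Mini lobes Cdk6 had the higher mean on both scales, at 159 against 14.5 CPM per kb of exon and 11.7 against 10.7 CPM per kb of the whole gene. On the latter scale the Mini lobes overlapped, at 10.26 to 13.32 for Cdk6 and 7.267 to 14.47 for Cdk4. In DN cells of the WT lobes the order changed with the length, with Cdk6 and Cdk4 at 124.5 and 15.14 CPM per kb of exon but 9.193 and 11.22 per kb of the whole gene. Whether introns were counted is not stated.

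**Figure D2:**
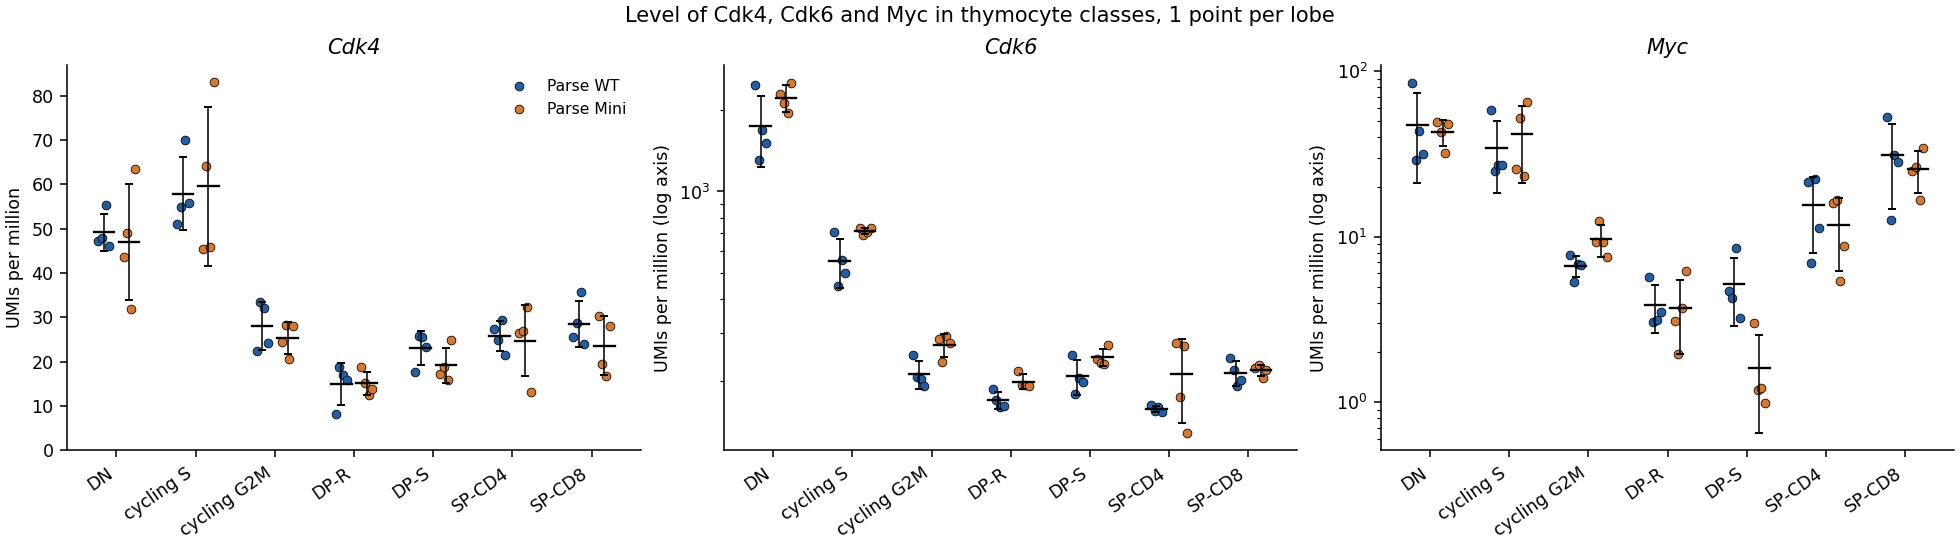
Levels of Cdk4 (linear axis), Cdk6 and Myc (log axes) in CPM in 7 thymocyte classes, with 1 point per thymic lobe, a line at the mean and bars of 1 SD over 4 lobes, Parse WT in blue and Parse Mini in orange. In all 3 genes the means of DN and S-phase cells are above those of G2M and DP-R cells, and the mean of Myc is higher in both SP classes than in DP-R cells.

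Myc (chr15:61985391-61990374, plus strand) was low in DP-R cells, at 5.68, 3.07, 3.12 and 3.50 CPM in WT and 3.09, 1.95, 3.70 and 6.17 CPM in Mini. DN cells held 85.1, 28.9, 43.3 and 31.7 CPM in WT and 48.9, 43.0, 31.9 and 47.6 CPM in Mini. Parse sample 1 was the highest WT lobe in both classes. The log2 difference was 3.36 (SE 0.19) and 3.39 (SE 0.25), or 10.3-fold and 10.5-fold (edgeR adjusted p = 5.51e-17 and 5.00e-16).

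Cycling cells had more Myc than DP-R cells, by 2.11 and 2.35 on the log2 scale (edgeR adjusted p = 2.65e-13 and 1.21e-14), and less than DN cells, by a log2 difference of DN from cycling of 1.254 and 1.04 (edgeR adjusted p = 1.41e-08 and 3.15e-05). The S-phase clusters, at 58.0, 24.8, 27.1 and 27.2 CPM in WT, did not overlap the G2M clusters, at 7.74, 5.36, 6.85 and 6.78 CPM. Mini S-phase clusters had 23.4 to 64.8 CPM and Mini G2M clusters 7.51 to 12.5 CPM. The Mini call of DN against cycling was lost under the stricter doublet removal, with a log2 difference of 1.11.

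Myc was higher again in mature cells. SP-CD8 cells had 52.9, 12.5, 31.2 and 28.4 CPM in WT and 24.7, 26.5, 16.8 and 34.4 CPM in Mini, above DP-R cells by 2.93 and 2.71 on the log2 scale (edgeR adjusted p = 4.63e-12 and 6.85e-11). SP-CD4 cells had 21.3, 6.95, 22.3 and 11.3 CPM in WT and 15.9, 16.6, 5.38 and 8.84 CPM in Mini, above by 1.93 and 1.60 (edgeR adjusted p = 5.63e-08 and 0.00392). All SP lobes lay above their own DP-R cells, although the lowest Mini SP-CD4 lobe, 2-A, was under the highest DP-R lobe. Without lobe 1-B the Mini call for SP-CD4 was lost, with a log2 difference of 1.15.

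Of the inhibitors tested in both kits, Cdkn2c had the largest difference between cycling and DP-R cells. Cdkn1b had its highest mean of the 6 classes in DP-R cells, from which DP-S cells did not differ by the test. Cdkn2c (chr4:109660876-109667189, minus strand) stood in cycling cells at 47.3, 39.0, 50.4 and 39.8 CPM in WT and at 41.8, 50.5, 45.2 and 48.2 CPM in Mini. DP-R cells had 4.11, 6.15, 5.59 and 4.75 CPM in WT and 8.56, 4.09, 4.63 and 5.06 CPM in Mini. No cycling lobe came near a DP-R lobe, and cycling cells were 8.30-fold and 8.19-fold higher, a log2 difference of 3.05 (SE 0.14) and 3.03 (SE 0.16) (edgeR adjusted p = 2.99e-20 and 1.15e-21).

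Within cycling cells Cdkn2c was higher in the G2M clusters, at 57.7, 47.5, 68.8 and 48.9 CPM in WT, than in the S-phase clusters, at 22.2 to 26.1 CPM. It was the reverse of the order of Ccnd2, Cdk4, Cdk6 and Myc in the WT lobes. DN cells had 6.30, 9.80, 10.8 and 13.5 CPM in WT and 10.5, 13.8, 13.5 and 5.29 CPM in Mini, lower than cycling cells by log2 differences of −2.07 and −2.12 (edgeR adjusted p = 1.45e-11 and 1.78e-09).

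The excess of Cdkn2c in DN over DP-R cells, 0.98 in WT and 0.91 in Mini on the log2 scale (edgeR adjusted p = 0.00161 and 0.0294), was lost in both kits in cells of 1000 to 10000 UMIs, where it was 0.06 and 0.65. It was also lost without Parse sample 4 (0.72), without Mini lobe 1-B (0.66) or 2-A (0.68), in Mini without the low-count filter (0.80), and in WT under the stricter doublet removal (0.36). SP-CD8 cells had 1.71 to 7.79 CPM in WT, and the log2 difference of 0.21 from DP-R cells did not pass (edgeR adjusted p = 0.720). In Mini they had 15.1, 21.2, 20.6 and 15.6 CPM and were higher by 1.72 (edgeR adjusted p = 7.55e-06), which turned to −0.23 under the stricter doublet removal. In these Mini cells Mki67 was at 728 to 1252 CPM, and the part of dividing cells in this value was not tested.

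Cdkn1b (chr6:134920401-134925513, plus strand) had, per kilobase of exon or of whole gene, the highest mean level of the 4 inhibitors in each of the 6 classes of both kits. In DP-R cells it stood at 195, 162, 174 and 137 CPM in WT and at 230, 181, 183 and 179 CPM in Mini. DN cells had 105, 103, 106 and 85.9 CPM in WT and 141, 106, 98.1 and 118 CPM in Mini. They were lower than DP-R cells in 4 of 4 lobes of each kit, by −0.82 (SE 0.069) and −0.81 (SE 0.091) on the log2 scale (edgeR adjusted p = 1.51e-12 and 1.98e-10).

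Cycling cells held 175, 138, 145 and 108 CPM of Cdkn1b in WT and 184, 157, 183 and 156 CPM in Mini. The ranges of cycling and DP-R cells overlapped between lobes, but within each of the 8 lobes the cycling cells were lower, by −0.26 and −0.23 (edgeR adjusted p = 4.30e-05 and 8.32e-04). The differences of DP-S from DP-R cells, −0.11 in WT and −0.05 in Mini, did not pass (edgeR adjusted p = 0.205 and 0.761). SP-CD8 cells were lower than DP-R cells by −0.44 and −0.37 (edgeR adjusted p = 1.57e-05 and 3.56e-04). SP-CD4 cells were lower by −0.31 in WT (edgeR adjusted p = 1.44e-04), and the −0.19 in Mini did not pass (edgeR adjusted p = 0.152) but did without the low-count filter (−0.31), under the stricter doublet removal (−0.42) and under the other clustering (−0.33).

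Cdkn2d (chr9:21288410-21291407, minus strand) was at 13.5 to 17.7 CPM in DP-R cells of the WT lobes and 10.2 to 14.02 CPM in Mini. Within cycling cells it was lowest in S phase, at 4.26 to 13.3 CPM in WT and 4.67 to 8.39 CPM in Mini, and highest in G2M, at 17.6, 31.3, 29.7 and 23.3 CPM in WT and 19.4 to 24.4 CPM in Mini. For the cycling class as a whole the log2 difference from DP-R cells was 0.33 in WT (edgeR adjusted p = 0.00671) and 0.31 in Mini (edgeR adjusted p = 0.0523). The WT call was lost without the lobe block and without Parse sample 2 (0.23) or 4 (0.32).

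DN cells had less Cdkn2d than DP-R cells, by −0.60 in WT and −1.35 in Mini (edgeR adjusted p = 0.00488 and 5.70e-04), and less than cycling cells, by −0.92 and −1.66 (edgeR adjusted p = 3.10e-05 and 3.58e-05). The first WT call was lost without the lobe block and in cells of 1000 to 10000 UMIs, where it was −0.36. In SP-CD4 and SP-CD8 cells no difference of Cdkn2d from DP-R cells passed in either kit, and in SP-CD8 cells of WT it was −1.0 without Parse sample 2, which passed. In SP-CD4 cells of WT it passed under the other clustering, at −0.34.

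Cdkn1a (chr17:29090976-29100727, plus strand, overlapped by AC167363.2 on the other strand), a target of p53, was counted mainly in DN cells. These held 31.5, 13.9, 24.8 and 14.9 CPM in WT, from 20, 27, 39 and 41 UMIs, and 8.73, 13.8, 14.7 and 14.6 CPM in Mini, from 5, 9, 12 and 11 UMIs. DP-R cells had 0.196 to 0.709 CPM in WT and 0 to 0.389 CPM in Mini. In WT the log2 difference was 4.98 (SE 0.35) from DP-R and 3.28 (SE 0.28) from cycling cells (edgeR adjusted p = 1.27e-14 and 3.37e-12). Mean levels in the WT classes other than DN were 0.451 to 1.86 CPM, so the gene passed the low-count filter through its DN cells. These p-values are therefore no separate support for a high level in DN cells. Cycling cells were above DP-R cells by 1.69 (edgeR adjusted p = 6.21e-04). In Mini the gene was under the low-count filter, and its level in DN cells was above that in DP-R and in cycling cells in 4 of 4 lobes. Myeloid cells of the WT lobes held more, 42.2 to 68.3 CPM.

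**Figure D3:**
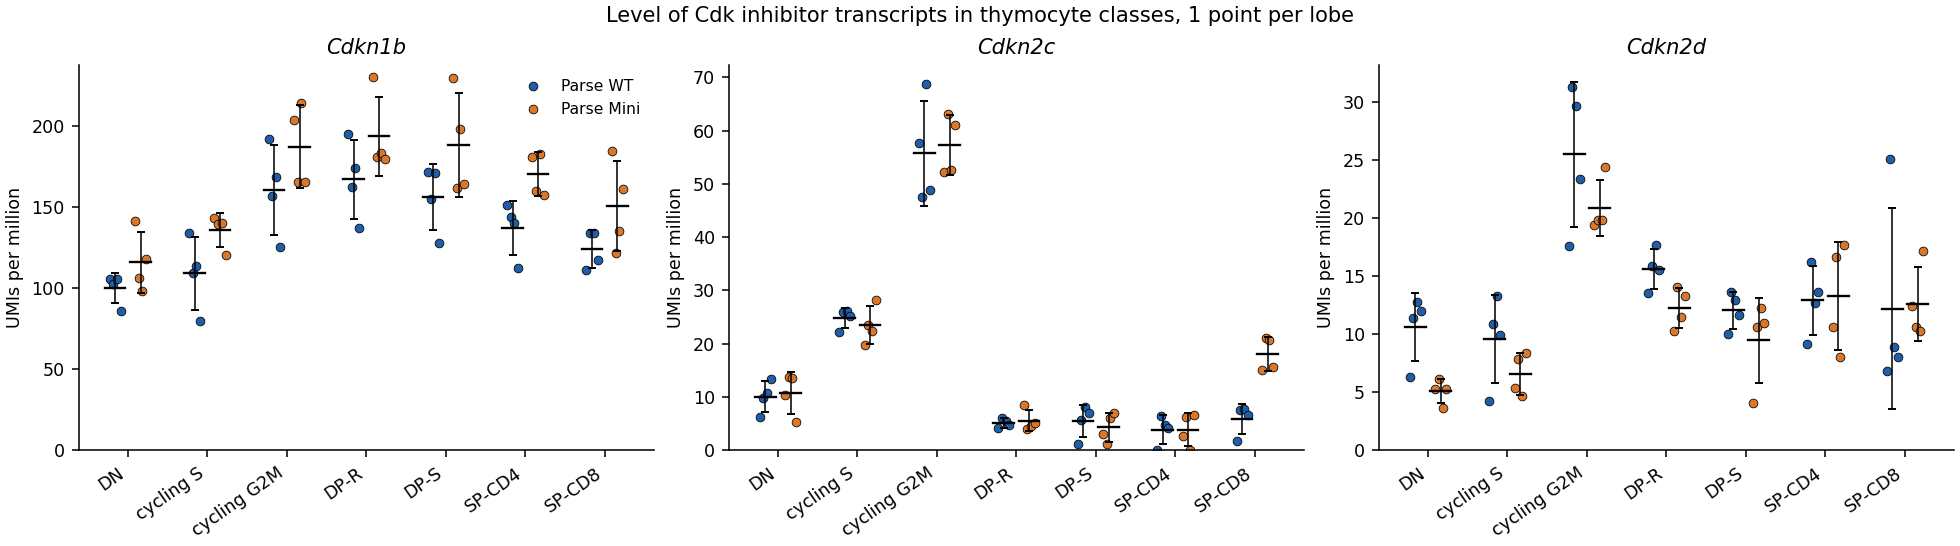
Levels of the inhibitors Cdkn1b, Cdkn2c and Cdkn2d in CPM (linear axes) in 7 thymocyte classes, with 1 point per thymic lobe, a line at the mean and bars of 1 SD over 4 lobes, Parse WT in blue and Parse Mini in orange. Cdkn1b is lowest in DN cells, Cdkn2c peaks in G2M cells near 50 to 70 CPM, and Cdkn2d is higher in G2M than in S-phase cells.

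Counted over the comparisons, 9 of the 10 genes could be tested in WT and 8 in Mini, Ccnd1 being under the filter in both and Cdkn1a in Mini. Cdkn1a, which entered the WT tests through its DN cells, is among the genes counted as higher in DN cells of WT. Of cycling against DP-R cells, 7 were higher and 2 lower in WT and 5 and 2 in Mini, where 64.3% and 64.1% of all 11520 and 8982 genes tested were called. Over all genes 33.0% were higher and 31.3% lower in WT, and 33.0% and 31.1% in Mini. Ccnd2, Cdk4, Cdk6, Cdkn2c and Myc were higher and Ccnd3 and Cdkn1b lower in both kits. The median log2 difference over the tested genes was 1.00 in WT and 1.14 in Mini, and −0.004 to 0.005 over all genes.

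Of DN against DP-R cells, 6 were higher and 3 lower in WT and 5 and 3 in Mini, beside 57.8% and 52.1% of all genes called (29.4% higher and 28.4% lower in WT, 29.9% and 22.2% in Mini). Of DN against cycling cells, 4 were higher and 4 lower in WT and 3 and 4 in Mini, beside 44.5% and 37.1% (19.0% higher and 25.5% lower in WT, 18.9% and 18.2% in Mini). Ccnd2, Cdk6 and Myc were higher in DN cells in both kits, and Ccnd3, Cdkn1b, Cdkn2c and Cdkn2d lower.

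The fewest calls were between DP-S and DP-R cells, with 2 genes higher in WT, 1 in Mini and 0 lower by edgeR, beside 19.4% and 13.7% of all genes called (9.77% higher and 9.65% lower in WT, 6.61% and 7.05% in Mini). At an unadjusted p under 0.05, 1 gene was lower in WT (Cdkn2d) and 1 in Mini (Myc), and DESeq2 called 0 lower. Under the other clustering, whose DP-S class holds other cells, Ccnd3, Cdkn1b (−0.37 and −0.26) and Cdkn2d (−0.48 and −0.66) were called lower in both kits. Ccnd2, Cdk4, Cdk6 and Myc (1.64 and 1.21) were called higher in both under that clustering. The WT difference of Cdkn2d, −0.40, passed without Parse sample 2 (−0.46), in cells of 1000 to 10000 UMIs (−0.46) and under the stricter doublet removal (−0.61). SP-CD4 cells had 3 higher and 2 lower in WT and 2 and 1 in Mini beside 40.0% and 32.0% of all genes called (20.6% higher and 19.4% lower in WT, 18.3% and 13.7% in Mini). SP-CD8 cells had 4 higher and 2 lower in each kit, beside 38.9% and 46.1% (20.1% higher and 18.8% lower in WT, 28.4% and 17.7% in Mini). No gene was called in opposite directions in the 2 kits. All comparisons with DP-R cells share the DP-R cells, and their values stand side by side only.

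**Figure D4:**
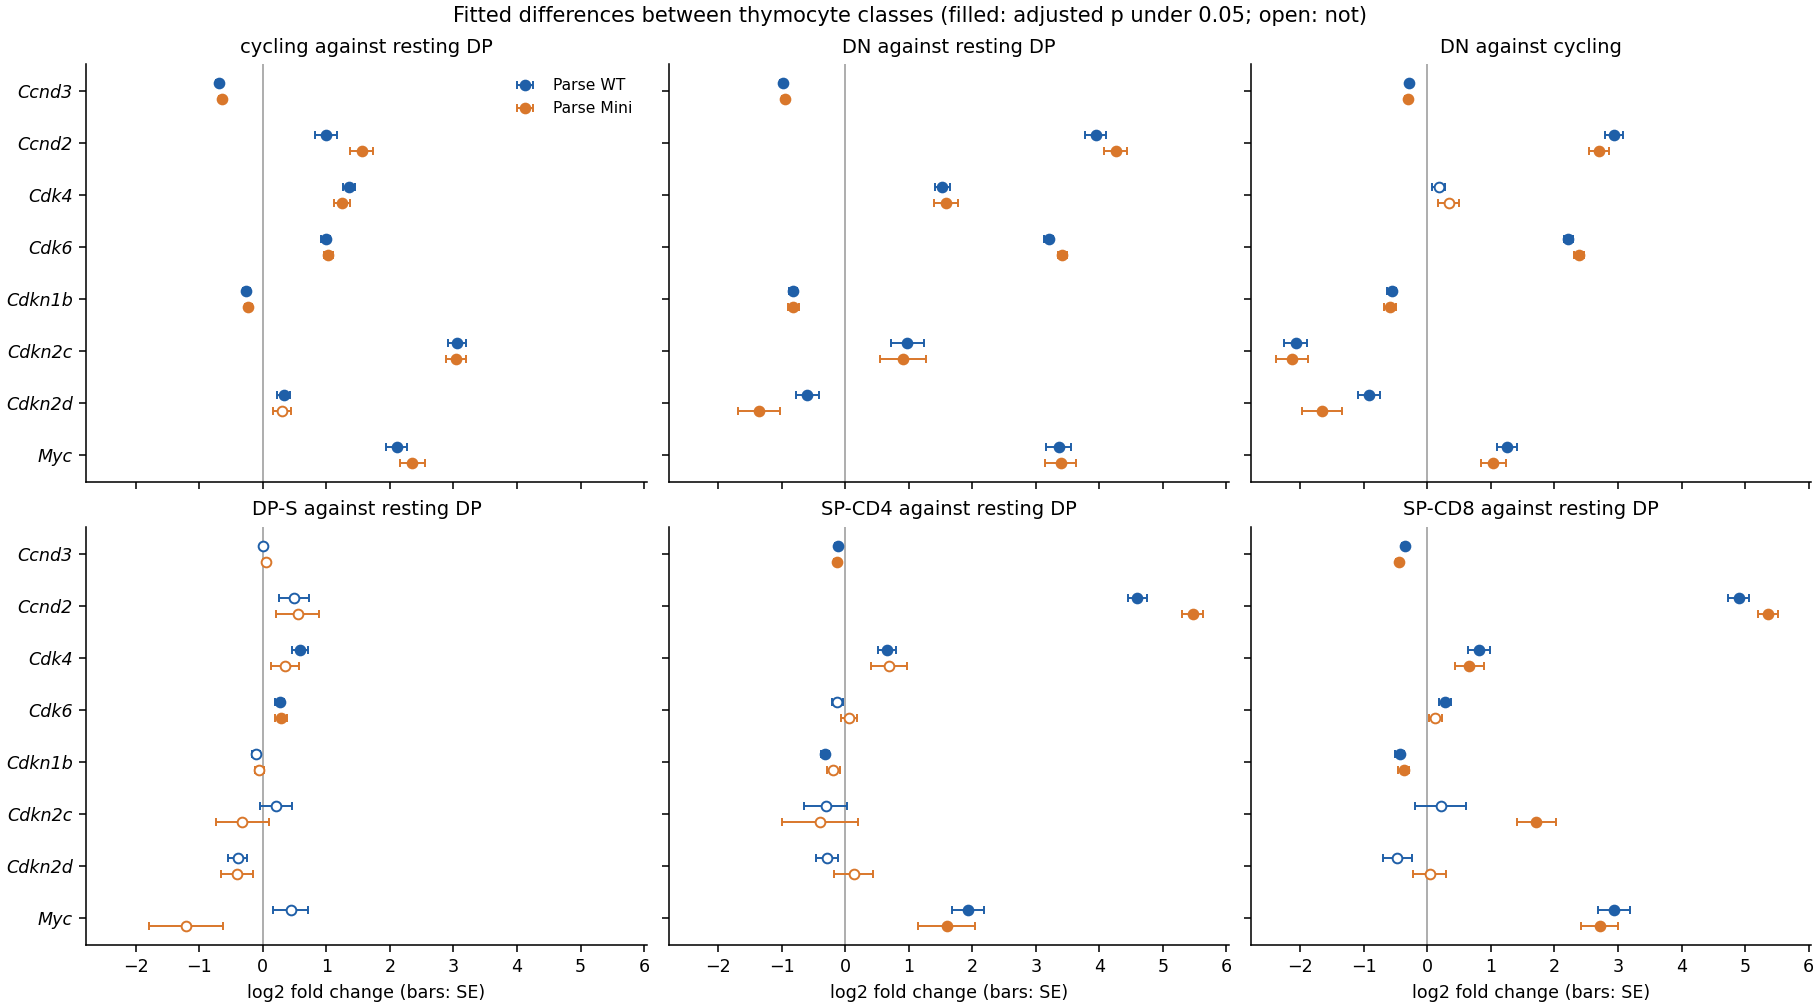
Log2 differences of 8 of the genes in 6 class comparisons, with bars of 1 SE from the edgeR fit, Parse WT in blue and Parse Mini in orange, filled where the adjusted p is under 0.05. Ccnd2 spans from 0.49 in DP-S cells to 5.47 in SP-CD4 cells against DP-R cells, while Ccnd3 lies at or below 0.05 in all 6 comparisons.

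Of the 50 further genes of the pathway, 46 could be tested in WT and 44 in Mini. In cycling against DP-R cells 25 rose and 9 fell in both kits of the 44 tested in both, where 30.4% of all genes were higher and 29.0% lower in both kits. None went in opposite directions. Of the 10 E2F factors and partners, 8 rose and 1, E2f4, fell. Among them the repressive E2f8 rose by 4.28 and 4.84 on the log2 scale in WT and Mini, and E2f7 by 4.38 and 4.61. Of cyclin E, cyclin A and their kinase and activators, 6 of 9 rose, with Ccna2 at 4.01 and 4.59. Of the DREAM and MuvB genes, 5 of 7 rose, among them Foxm1, a driver of G2M genes, by 4.00 and 4.52. Of the Myc network, 1 rose and 5 fell of the 9 tested in both kits. The riser was Mxd3, at 4.36 and 3.93, and Max, Mga, Mlx, Mxd4 and Mxi1 fell.

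Of the pocket proteins Rb1 and Rbl1 rose and Rbl2, which binds E2f4 in resting cells, fell in both kits. Of the genes that turn over D cyclins, p27 and Myc, Cul1, Skp2 and Usp28 rose and Ambra1, which marks D cyclins for destruction, fell. The other Cdk inhibitors Cdkn1c, Cdkn2a and Cdkn2b were all under the filter.

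DN cells had 19 of these genes higher and 8 lower than DP-R cells in both kits (25.5% and 20.8% of all genes), led by E2f8 (2.18 and 3.09), Mxd3 (2.42 and 2.41) and Ccna2 (2.05 and 2.76). Against cycling cells, DN cells had 2 higher and 23 lower (14.6% and 16.7% of all genes), with Ccne1 at −1.72 and −2.73, E2f7 at −2.09 and −2.10 and Foxm1 at −1.71 and −2.13. Lower in DN cells in both kits were 6 of 10 E2F factors and partners, 6 of 9 cyclin E and A genes with their kinase and activators, and 6 of 7 DREAM and MuvB genes, and none of these was higher.

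SP-CD4 cells had 7 genes higher and 8 lower than DP-R cells in both kits, of 44 tested, beside 16% and 12.2% of all genes, with Mxd1, a partner of Max that opposes Myc, higher by 1.21 and 1.24 and Rbl1 by 0.82 and 0.77. SP-CD8 cells had 8 higher and 7 lower, beside the 18.8% and 14.5% of all genes, with Ccne1 higher by 1.74 and 2.96, E2f1 by 1.00 and 2.25 and Rbl1 by 0.66 and 1.76. Counted in each kit, 20 of 44 genes were higher in SP-CD8 cells of Mini and 9 of 46 in those of WT, where 28.4% and 20.1% of all genes were higher, beside the difference in Mki67 given above, whose part was not tested. DP-S cells had 3 higher and 3 lower (5.59% and 6.0% of all genes), none of them by more than 0.59 in either direction, with E2f3 at 0.58 and 0.56 and E2f2 at −0.59 and −0.51.

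Over the 24 sums of 6 classes and 4 lobes in each kit, the genes most like Ccnd3 among 6536 were Txk, with a Pearson correlation of log2(CPM + 1) of 0.955 in WT and 0.917 in Mini, Slco3a1 (0.943 and 0.919), Sh3kbp1, Jakmip1 and Mfhas1. Those most like Ccnd2 were the class I genes B2m (0.986 and 0.941), H2-K1 (0.981 and 0.971) and H2-D1, with Smad7 and the unnamed ENSMUSG00000121501. Those most like Myc were Tbc1d5 (0.9322 and 0.8286), Prmt3 (0.9314 and 0.9058), Celsr1 (0.9259 and 0.904), Suclg2 (0.9238 and 0.7585) and Eml4 (0.9182 and 0.8395). All these genes were ranked by the value in WT, and the value in Mini stands beside it. The sums share lobes and libraries, and no test was made. Ccnd3 and Ccnd2 themselves had −0.30 in WT and −0.44 in Mini.

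In the 16 other tissue samples, T-like and B-like cells expressed both Ccnd3 and Ccnd2. A cluster of 4073 cells led by Cd8b1 and Cd8a raised all 10 T cell markers but stayed unnamed by the naming rule, so its cells are not in the T-like class. In B-like cells the lowest, median and highest sample had 1383, 2132 and 3555 CPM of Ccnd3 and 54.8, 171 and 346 CPM of Ccnd2. In T-like cells they had 1621, 2615 and 3862 CPM of Ccnd3 and 170, 379 and 643 CPM of Ccnd2. Within a sample the T-like cells were above the B-like cells in 15 of 16 samples for Ccnd3, with a median ratio of 1.22, and in 16 of 16 for Ccnd2, with a median ratio of 2.57. At 1000 UMIs per cell the counts were again 15 and 16 of 16. Part of the T-like cells formed mixed clusters that carried the B cell gene Cd79a at 75.5 to 240 CPM, and its part in their levels was not tested. Rag1 was at 2.77 to 14.03 CPM in T-like and 3.12 to 10.7 CPM in B-like cells.

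Among the T-like cells, CD4 T-like cells of 9 samples had 2153, 3288 and 4383 CPM of Ccnd3 and 201, 610 and 740 CPM of Ccnd2. Regulatory T-like cells had less Ccnd3 than CD4 T-like cells in 9 of 9 samples, with a median ratio of 0.828, while Ccnd2 was higher in 5 and lower in 4, and at 1000 UMIs per cell higher in 2 and lower in 7, so no order is read from it. Cdk6 was above CD4 T-like cells in 9 of 9 samples, with a median ratio of 4.55. Its lowest, median and highest values were 164, 262 and 345 CPM in regulatory T-like cells and 30.8, 56.8 and 81.1 CPM in CD4 T-like cells.

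Proliferating cells with B markers, from 11 samples, repeated the low Ccnd3 of cycling thymocytes. The class joined a cluster of 1379 cells, for which B was the next best list after cycling, and one of 527 cells, for which it was plasma. The share of each cluster by sample was not examined. They had 717, 887 and 1578 CPM, below the B-like cells of the same sample in 11 of 11, with a median ratio of 0.396. Cdkn1b was also lower, in 10 of 11 samples with a median ratio of 0.497, and Cdkn2c was higher in 11 of 11 with a median ratio of 18.3, at 11.6, 25.5 and 38.2 CPM. Cdk4 was higher in 11 of 11 with a median ratio of 2.00. Myc had no single direction against B-like cells. It was lower than in B-like cells in 8 of 11 samples and higher in 3, with a median ratio of 0.692. At 1000 UMIs per cell Myc was lower in 7 and higher in 4, so no order is read from it. The cycling thymocytes were set against DP-R cells, in which Myc was low, so the 2 comparisons are unlike. Ccnd2 was lower in 9 of 11, but in only 6 of 11 at 1000 UMIs per cell, and no order is read from it.

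Myc was 48.0 CPM in the median sample in B-like cells (lowest 29.0, highest 113) and 35.5 CPM in T-like cells (22.4 and 57.6). T-like cells were lower in 16 of 16 samples and, at 1000 UMIs per cell, in 13 of 16. Cdkn1b was above B-like cells in T-like cells in 15 of 16 samples, with a median ratio of 1.49. A set of 8 samples held 50 or more DP-R-like cells, with 15.0, 57.0 and 130 CPM of Ccnd2 and 1638, 2667 and 3689 CPM of Ccnd3, a wider spread than over the thymic lobes. Mki67 was at 292 to 964 CPM in these cells.

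**Figure D5:**
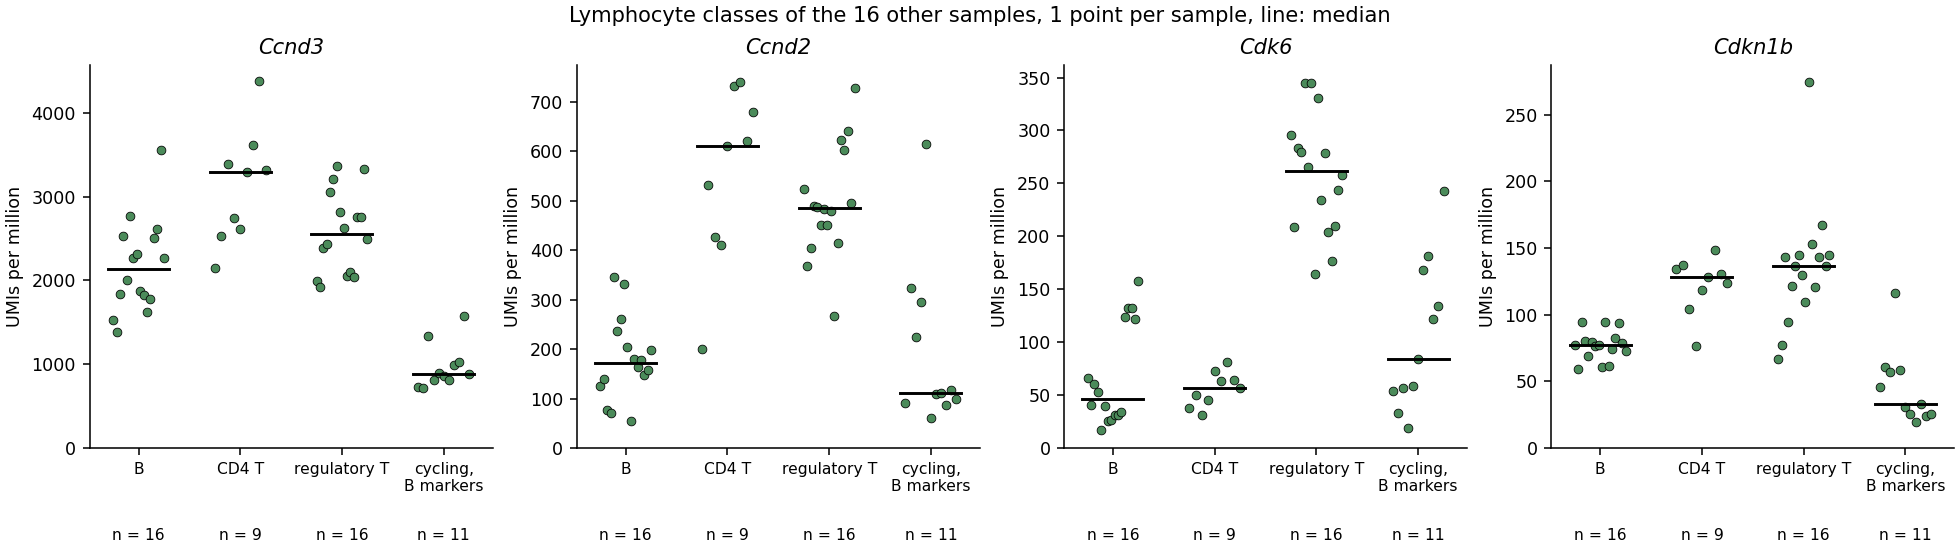
Levels of Ccnd3, Ccnd2, Cdk6 and Cdkn1b in CPM in B-like, CD4 T-like, regulatory T-like and proliferating cells with B markers of the 16 other tissue samples (n = 16, 9, 16 and 11 samples with 50 or more such cells), with 1 point per sample and a line at the median. Proliferating cells have the lowest medians of Ccnd3 and Cdkn1b, and regulatory T-like cells are highest in Cdk6.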

How the data were processed

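The authors deposited UMI counts per cell and gene for each Parse kit, without normalization, with a table of cells and a list of genes. Per the study's methods each sublibrary was processed with split-pipe against mm10 (Ensembl), and the authors combined the sublibraries into 1 matrix. The sources used here do not give the split-pipe version, the Ensembl release or the treatment of introns and strand. The tissue sample, well and barcode of each cell came from the cell table. Its UMI counts per cell equalled the sums of the matrix. The 10x data were not analysed here.

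Cells were kept at 500 to 25000 UMIs if mitochondrial genes held no more than 15% of them. Doublets were called with a nearest-neighbour score at the share of barcode collisions expected for each sample. This removed 1.46% to 6.82% of the cells of the WT lobes that passed quality control and 4.46% to 5.44% in Mini. The study, with another doublet caller, reported larger shares for both Parse libraries, so cells it removed can remain here. Thymic cells were clustered with Seurat 5.3.0 and sctransform 0.4.2 in R 4.3.3 (3000 features, reciprocal PCA, 30 components, resolution 0.8), leaving out the 10 genes and the pathway genes. The 16 other samples were clustered from log counts in Python 3.11.15. A class needed at least 3 markers raised 1.25-fold with 10 UMIs. A class was used in a sample with at least 50 cells. Unnamed clusters held 9.68% to 11.6% of the cells of the WT lobes and 14.0% to 16.0% in Mini, and 2.38% to 61.3% in the other samples, highest in CVS_C_3. UMI counts outside Rn18s-rs5, mt-Rnr1 and mt-Rnr2 were summed per class and lobe and tested with edgeR 4.0.16 (filterByExpr, TMM, quasi-likelihood) with class and lobe in the model. The 6 classes of a lobe come from the same tissue sample, hence the block. Genes were called at an adjusted p under 0.05 over all genes tested. The fit was tested on simulated data with known changes. No fold is given where a class has 3 UMIs or fewer. Alternatives were RLE factors, DESeq2 1.42.0, no low-count filter, no block, leaving out each lobe, 1000 UMIs per cell, cells of 1000 to 10000 UMIs, removal of the 30% of cells with the highest doublet score, another clustering and library sizes with ribosomal RNA.

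Total depth was 30450786 to 124106974 UMIs in the WT lobes, 28057164 to 33264104 in the Mini lobes and 5405078 to 91172408 in the other samples. Exact 95% binomial intervals were computed for shares of cells, which cover counting error only. Gene positions are from GENCODE M21 on GRCm38, and promoters from RefSeq on GRCm38.p6.

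The 10 genes and the gene lists were chosen with earlier results of these data known. Named are the 10 genes, up to 5 pathway genes per comparison with the largest change called in the same direction in both kits, the 5 genes most like Ccnd3, Ccnd2 and Myc among those with a mean of 20 CPM or more, class markers, and pathway genes outside this rule that were named after their values were seen.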

Additional observations from a re-analysis of the deposited data

Results flagged for a closer look

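In 18 of 117 groups of 4 lobes, 1 lobe lay far from the other 3, by Dixon's ratio of the gap to the range at its 95% critical value. Chance flags about 1 in 20 independent groups, and these groups share lobes. Of these, 11 were in Parse WT, and 7 were set by Parse sample 1, the smallest lobe. It was above the others in Ccnd2, at 342 CPM in DN, 438 CPM in SP-CD4 and 518 CPM in SP-CD8 cells, and below them in DP-R cells, at 7.83 CPM. In DP-R cells it was also highest in Ccnd3, at 5233 CPM, and in Myc, at 5.68 CPM, and in DP-S cells it was at 0 CPM of Ccnd1. Without this lobe all 39 called values of the WT kit kept their call, and Ccnd2 of DP-S against DP-R cells, not called with it, passed (log2 difference 0.52, adjusted p = 0.002 by edgeR).

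The other lobes of WT that lay apart were Parse sample 2, with 4899 CPM of Ccnd3 in SP-CD4 cells and 25.1 CPM of Cdkn2d in SP-CD8 cells, Parse sample 3, with 1.81 CPM of Cdkn1a in SP-CD4 cells, and Parse sample 4, with 85.9 CPM of Cdkn1b in DN cells. In Mini, lobe 1-A lay apart in DP-R cells with 217 CPM of Cdk6 and 230 CPM of Cdkn1b, in DN cells with 8.735 CPM of Cdkn1a and in DP-S cells with 3.03 CPM of Myc. Lobe 1-B lay apart with 378 CPM of Cdk6 in cycling cells, lobe 2-A with 1.22 CPM of Cdkn1a in DP-S cells and lobe 2-B with 2.65 CPM of Ccnd1 in DN cells. The lobes named for Ccnd1 and Cdkn1a had 0 to 5 UMIs of the gene in that class.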

How the results depend on the processing

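Of 71 called values of the 10 genes, all 71 kept their direction and side of the threshold with RLE factors and with ribosomal RNA in the library size, 70 with DESeq2 and 68 without the low-count filter. Without the replicate block, which pairs the classes of a lobe, 64 kept their call and 7 lost it, and the count of genes called between DP-S and DP-R cells in WT was 1013 in place of 2237. All 65 called values that could be computed under the other clustering kept their call. It gave no SP-CD8 class in Mini.

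Over all genes, thinning to 1000 UMIs per cell left 4627 and 3276 calls (WT and Mini) for cycling against DP-R cells, where 7405 and 5755 were called at full depth, 3156 and 1979 for DN against DP-R, 2214 and 1421 for DN against cycling, 1453 in WT for DP-S, 2769 and 1563 for SP-CD4, and 2461 and 2049 for SP-CD8. Fewer genes could be tested then, 7442 in place of 11520 in WT and 5298 in place of 8982 in Mini, and the share called was 62.2% in place of 64.3% for cycling in WT and 19.5% in place of 19.4% for DP-S in WT, but 42.4% in place of 57.8% for DN against DP-R in WT. The stricter doublet removal left 2651 calls in Mini for DN against DP-R and 1846 for DN against cycling. The other clustering gave 4705 and 3854 calls for DP-S and 4729 in Mini for SP-CD4. Leaving out 1 lobe gave between 1429 (without Parse sample 4) and 2231 calls for DP-S in WT. Without the low-count filter the share of higher calls was lower by 10.4 percentage points for DP-S in WT and by 10.9 for SP-CD4 in Mini. RLE factors and ribosomal RNA in the library size moved no median of all genes past 0.1 on the log2 scale, and without the filter it was as low as −0.23 (SP-CD4 in Mini).

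Of called values, only Cdkn2c in SP-CD8 cells of Mini turned, to −0.23 under the stricter doublet removal. The other log2 differences from DP-R cells that turned were not called as reported. Those called once turned were Ccnd3 and, in Mini, Myc of DP-S cells under the other clustering and Cdk6 of SP-CD4 cells in Mini under the stricter doublet removal, and the cause was not tested. For DP-S cells in WT, Ccnd3 was −0.0455 without the filter, −0.24 under the other clustering and −0.018 (without Parse sample 1) to 0.015 without 1 lobe. There Cdkn1a was 0.61 under the other clustering and −1.09 to 0.15 (without Parse sample 2), and Cdkn2c −0.038 in cells of 1000 to 10000 UMIs and −0.073 under the other clustering. In Mini, DP-S cells had Ccnd3 at −0.17 and Myc at 1.21 under the other clustering, and Cdkn2c at 0.38 under the stricter doublet removal and −0.72 to 0.060 (without lobe 1-A). For SP-CD4 cells in Mini, Cdk6 was −0.065 without the filter, −0.49 at 1000 UMIs, −0.18 in cells of 1000 to 10000 UMIs, −0.43 under the stricter doublet removal, −0.029 under the other clustering and −0.083 (without lobe 2-A) to 0.23 without 1 lobe, below 0 also without lobe 1-A. Under the other clustering Cdkn2c was 0.16 there and Cdkn2d −0.17. For SP-CD8 cells, Cdkn2c was −0.27 in WT under the other clustering. Cdkn2d in Mini was −0.0084 with RLE factors, −0.0091 with DESeq2, −0.074 without the filter and −0.093 (without lobe 2-B) to 0.17 without 1 lobe, below 0 also without lobe 1-A.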

Other observations

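Outside the T and B lineages of the 16 other samples, Ccnd1, near 0 in lymphocytes, was counted in dendritic-like cells. It was at 57.4, 106 and 198 CPM (lowest, median and highest of 14 samples) in dendritic-like cells and at 31.0, 52.6 and 88.5 CPM in plasmacytoid dendritic-like cells of 5 samples, while B-like cells had at most 3.11 CPM and T-like cells at most 1.55 CPM. Macrophage-like cells of 11 samples had 0, 8.28 and 22.7 CPM of Ccnd1. Erythroid-like cells of 15 samples had the highest median of Cdkn2c of the named classes, at 40.4, 70.7 and 88.3 CPM, beside a median of 25.5 CPM in cycling cells with B markers. These erythroid-like cells carried Mki67 at 1561, 3525 and 4829 CPM, and their larger clusters raised 10 of 10 G2M markers. The part of division in their Cdkn2c was not tested. Their Ccnd3 was at 339, 530 and 950 CPM.

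Ccnd2 was at 303, 443 and 545 CPM in NK-like cells of 6 samples and at 448, 527 and 686 CPM in innate-like and gamma-delta T-like cells of 11 samples. Plasma-like cells of 12 samples, with Mki67 at 77.1, 318 and 838 CPM, had 114, 286 and 697 CPM of Ccnd2 with 252, 530 and 1580 CPM of Ccnd3.

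The level of Cdk6 in B-like cells fell into 2 separate ranges over the 16 samples, which the labels put in no condition. It was 124, 133, 132, 121.5 and 158 CPM in the samples named YD_C 1 to 5. In CVS_C 1 to 5 it was 66.3, 41.0, 60.8, 52.6 and 17.5 CPM, and in CVS_S 1 to 6 it was 39.8, 25.4, 26.5, 31.0, 31.4 and 34.3 CPM. In regulatory T-like cells the 16 samples ran from 164 to 345 CPM of Cdk6. Cdk6 was picked here after its values were seen, and the share of all genes that separate the same samples is not given. B-like clusters of 2742, 985 and 317 cells each came mostly from 1 sample (81%, 89.04% and 81.07% of their cells). The gap and the part of depth or of such clusters in it were not tested.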
